A study of Drosophila melanogaster with 10 samples.

Results

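Retinal determination genes were followed in fly larvae and eye-antennal disc cells with altered Jarid2 or labelled for reduced E(z). The 10 genes were ey, toy, eya, so, dac, eyg, tsh, tio, oc and dan, taken as a named list of retinal determination genes and eye-antennal disc selectors and found by their symbols in the array annotation. They were read by 12 probe sets out of 18769 tested, and made up 10 of the 11982 genes that the arrays could name. These were 1628973_a_at for ey, 1633512_at, 1633094_a_at and 1623314_at for toy, 1623206_a_at for eya, 1641675_at for so, 1633341_s_at for dac, 1632742_at for eyg, 1626150_at for tsh, 1632325_at for tio, 1626946_at for oc and 1639221_at for dan. Each gene had 1 probe set except toy, which had 3. All 12 probe sets were tested, with no filter on low values. The list was chosen with earlier results of these data known, so its shares of calls describe it and do not test it.

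The data were 10 Affymetrix expression arrays of Drosophila melanogaster, 2 in each of 5 groups, made from animals of the third instar raised at 25 °C. The groups were Jarid2 mutant disc cells and control disc cells, and, as whole animals, mutant larvae, larvae labelled E(z) RNAi and control larvae. Mutants came from the stock Jarid2MB00996/TM3, a transposon insertion in Jarid2 over a balancer chromosome, and the labels leave unsaid whether sampled animals had 1 or 2 copies of it. RNAi used a UAS-E(z)-RNAi line, whose driver the labels do not name, and the genotype field of those arrays reads wild type, as it does for the controls. Each larval sample pooled 20 animals, and each disc sample about 500 discs, which were dissociated and sorted by GFP fluorescence, without a statement in the labels of which fraction was kept. E(z) is the enzyme subunit of Polycomb repressive complex 2, which methylates histone H3, and Jarid2 is an accessory protein of the same complex.

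The retinal determination genes encode nuclear proteins that together commit part of the eye-antennal disc to form the eye. The Pax6 proteins Toy and Ey act at the top and turn on eya and so, whose products form one complex, and dac acts with them. Eyg, Tsh and Tio act in growth and patterning of the eye field, Oc patterns the ocelli and the head vertex, and Dan acts in the antenna and the eye. In flies many genes of this kind are marked by the methylation that Polycomb repressive complex 2 lays down where they are silent. No sequences are shown, because none of these genes or probes came with a sequence table here.

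All values are log2 expression per probe set as deposited, so a difference of 1 is a 2-fold difference. Upper quartiles were alike in the 10 arrays, from 9.41 to 9.49, while medians lay between 5.55 and 5.62 in disc arrays and between 7.39 and 7.54 in larval arrays. Median residual SD was 0.0978 in disc arrays and 0.160 in larval arrays. Differences are given ± standard error from limma with n = 2 arrays per group, called at an adjusted p under 0.05 over all probe sets. Since the labels do not describe replicates as separate cultures or animals, the p-values rest on a spread between samples that may be technical. The Jarid2 probe set read 7.64 and 6.80 in mutant disc cells against 10.14 and 10.10 in control disc cells, and 4.19 and 4.26 in mutant larvae against 9.63 and 9.48 in control larvae. The E(z) probe set went against its label, at 9.25 and 9.56 in larvae labelled E(z) RNAi against 8.53 and 8.31 in control larvae.

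**Figure D1:**
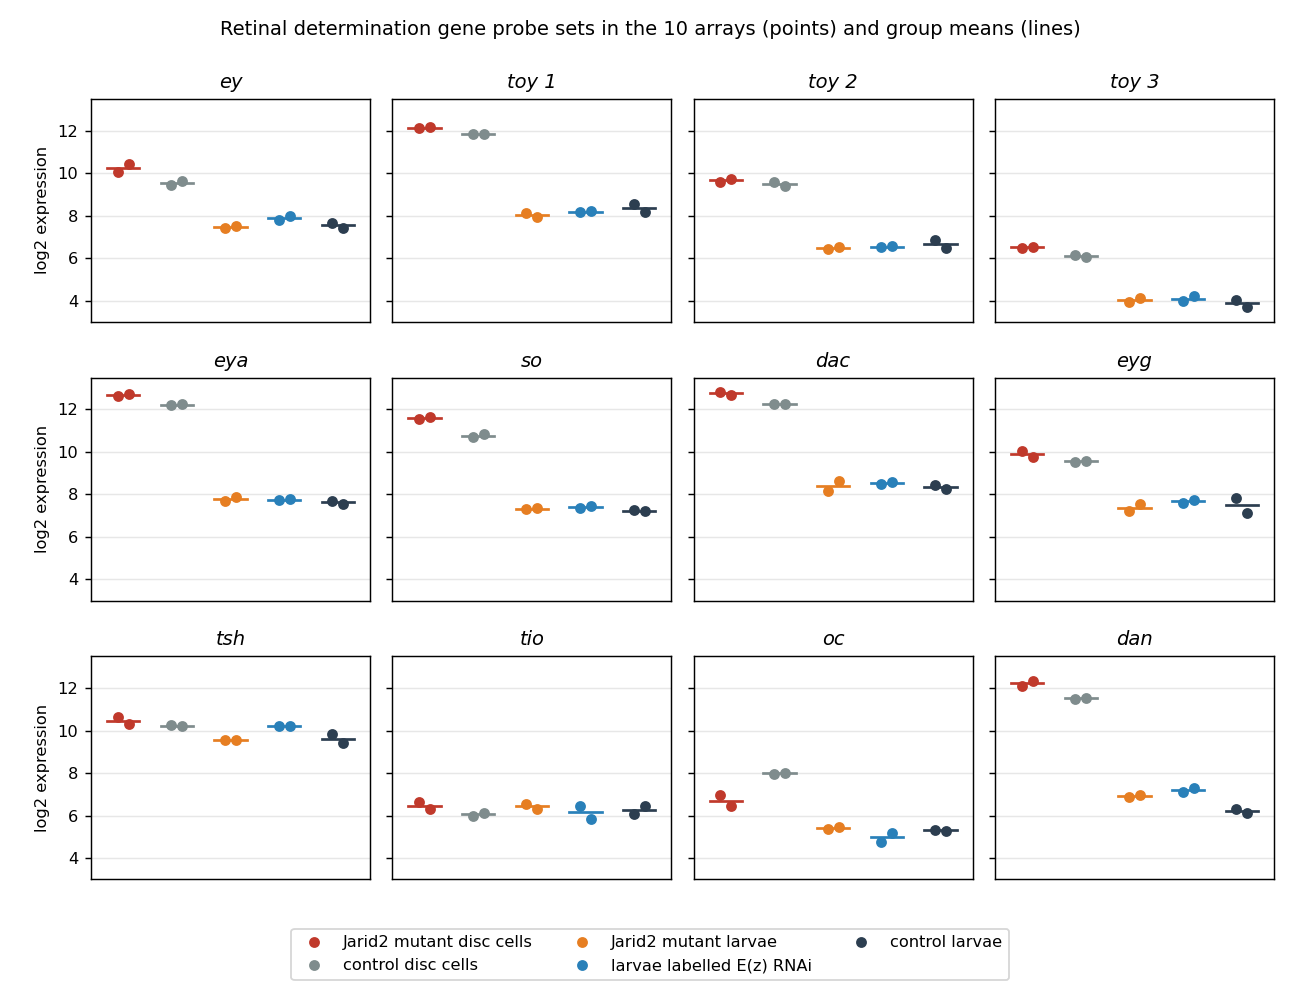
Log2 expression of the 12 retinal determination probe sets (panels) in the 10 arrays, as points, with short lines for the means of 2 arrays, and with toy 1, 2 and 3 for probe sets 1633512_at, 1633094_a_at and 1623314_at. Disc arrays lie above larval arrays for each gene except tsh and tio, and oc is the one panel in which mutant disc cells lie below control disc cells.

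Control disc cells were set against control larvae as a check of the list against its tissue. Of the 12 probe sets 11 were higher in disc cells, 91.7% of the list, where 28.4% of all probe sets were higher, and these 11 covered 9 genes. The median difference of the list was 2.74, against a median of -0.23 over all probe sets. The differences of dan, eya, dac and so were above 3.5, those of ey, toy, eyg and oc lay between 1.99 and 3.47, that of tsh was smaller, and tio did not pass the test.

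The largest difference among the 10 genes was that of dan. This pipsqueak-domain gene read 11.48 and 11.55 in control disc cells, against 6.33 and 6.11 in control larvae, a difference of 5.30 ± 0.13 (adjusted p = 2.36e-08). The phosphatase and coactivator gene eya read 12.20 and 12.25 in control disc cells, against 7.69 and 7.55 in control larvae, a difference of 4.61 ± 0.11 (adjusted p = 1.80e-08). The Ski-related gene dac read 12.26 and 12.25 in disc cells, against 8.44 and 8.27 in larvae, a difference of 3.90 ± 0.17. All 3 ranges were far apart. Probe set 1633341_s_at of dac carries the suffix that the array maker gives to probe sets that can match several transcripts, although the annotation lists 1 gene.

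For so, which encodes the homeodomain partner of Eya, control disc cells read 10.70 and 10.84 and control larvae 7.25 and 7.21, a difference of 3.54 ± 0.10. The Pax6 genes also stood higher in disc cells. The ey probe set read 9.45 and 9.62 in disc cells and 7.65 and 7.43 in larvae, a difference of 1.99 ± 0.15 (adjusted p = 1.12e-05). The 3 toy probe sets differed by 3.47 ± 0.14, 2.80 ± 0.14 and 2.22 ± 0.15, in the order 1633512_at, 1633094_a_at and 1623314_at. Probe set 1623314_at lay below the lower quartile of every larval array, so its difference rests on low larval values and may be a lower bound.

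Selectors outside the core varied more. The ocellar gene oc read 7.98 and 7.99 in control disc cells, against 5.32 and 5.29 in control larvae (2.68 ± 0.19), and the growth gene eyg 9.52 and 9.58 against 7.83 and 7.14 (2.07 ± 0.23). The zinc finger gene tsh, also known for trunk identity, read 10.26 and 10.21 in disc cells against 9.83 and 9.43 in larvae, a smaller difference of 0.61 ± 0.15 that passed the test (adjusted p = 0.00777). Its paralog tio read 6.0 and 6.14 in disc cells and 6.09 and 6.47 in larvae, ranges that overlapped, with a difference of -0.21 ± 0.23 (95% interval -0.75 to 0.33, adjusted p = 0.440). Relative to the median of all probe sets, tsh was 0.83 higher and tio 0.01 higher. The sign for tio depended on scaling, being 1.40 with quantile normalization of all arrays, which put the median of all probe sets at 0.44, and 1.67 with median centring, which put it at 1.66.

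**Figure D2:**
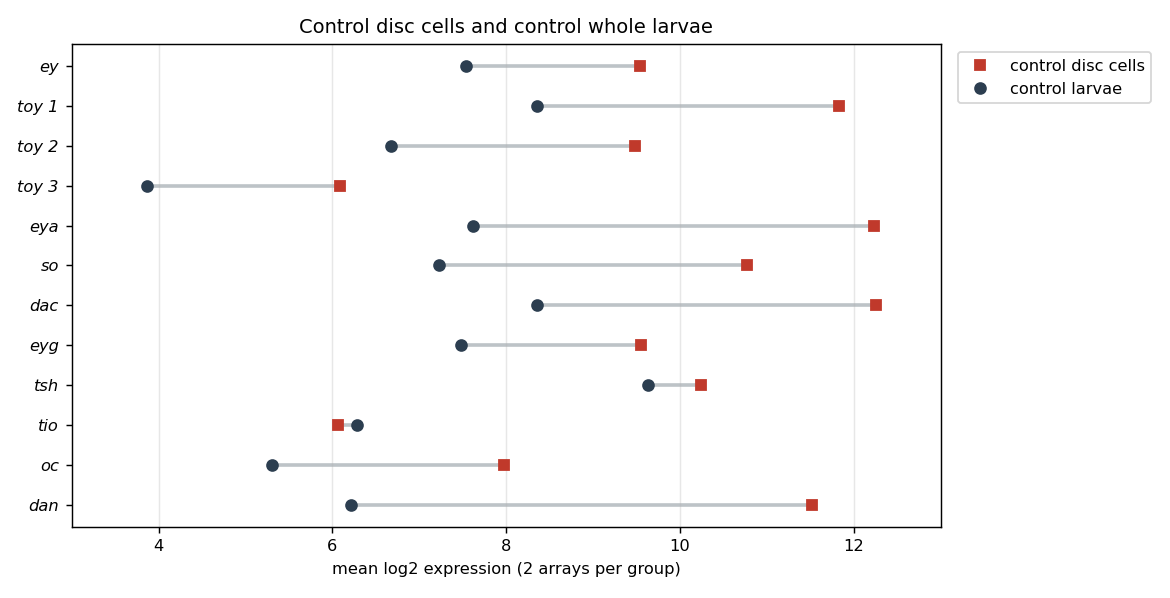
Mean log2 expression (horizontal axis) of each retinal determination probe set in control disc cells (squares) and control larvae (circles), 2 arrays per group, with toy numbered as in the plot of all arrays. The gap is widest for dan, at 5.30, and tio is the one probe set whose disc mean lies below its larval mean, an order that turns under quantile normalization of all arrays and under median centring.

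Other genes of eye and antennal development also stood higher in the disc cells. Of 21 further transcription factors 17 had a probe set, of which 15 were higher and 1 lower, with a list median of 1.98 against -0.24 over all genes. The Bar homeobox genes B-H1 and B-H2, which act in photoreceptors and the antenna, were higher by 4.92 ± 0.15 and 3.4 ± 0.11. The antennal and leg gene ss was higher by 4.10 ± 0.19, and danr, the paralog of dan, by 3.48 ± 0.13. All 11 measured signalling genes of the eye field were higher, with a median of 1.41, and 15 of 17 measured furrow and photoreceptor genes were, among them the photoreceptor regulator gl at 5.47 ± 0.24. The Runx gene lz read 5.07 and 4.90 in control larvae, just below the lower quartiles of 5.13 and 5.09. Its difference of 5.15 thus rests on low larval values and may be a lower bound. The fat body gene Lsp2 read just under the array medians in disc cells, at 5.42 and 5.51 in control disc cells against 14.86 and 14.91 in control larvae.

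Mutant disc cells set against control disc cells show how these genes stood when Jarid2 was mutated in the tissue that uses them. The core gene so and the eye and antennal gene dan rose, and the ocellar gene oc fell. Both mutant arrays lay above both control arrays for 11 of the 12 probe sets, where 37.1% of all probe sets showed that order, and below both for oc. Called higher were 2 probe sets, 16.7% of the list, where 0.517% of all probe sets were higher, and called lower was 1, or 8.33%, where 2.09% of all were. These shares belong to a list chosen with earlier results of these data known. The median over the 12 was 0.40, against 0.06 over all probe sets.

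In mutant disc cells so read 11.54 and 11.66, against 10.70 and 10.84 in control disc cells, a rise of 0.83 ± 0.10, or 1.77-fold (adjusted p = 0.00491). Every mutant reading exceeded every control reading. In mutant disc cells dan read 12.12 and 12.35, against 11.48 and 11.55 in control disc cells, a rise of 0.72 ± 0.13, or 1.64-fold (adjusted p = 0.0331). For oc the mutant disc cells read 6.98 and 6.43, against 7.98 and 7.99 in control disc cells, a fall of -1.28 ± 0.19 to a level 2.42-fold lower (adjusted p = 0.0128). The second mutant array was the lower one for oc, as it was for Jarid2 itself and for dac, eyg, tsh and tio. A link between oc and the level of Jarid2 was not tested. With quantile normalization of all arrays the oc difference was -0.71 (adjusted p = 0.0540).

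The remaining genes of the eye commitment core read higher in both mutant arrays without passing the test. The Pax6 gene ey read 10.06 and 10.41 in mutant disc cells, against 9.45 and 9.62 in control disc cells (0.70 ± 0.15, adjusted p = 0.0636). The probe set of eya read 12.65 and 12.71 in mutant disc cells, against 12.20 and 12.25 in control disc cells (0.45 ± 0.11, adjusted p = 0.0967). For dac the mutant disc cells read 12.81 and 12.69 and the control disc cells 12.26 and 12.25 (0.50 ± 0.17, adjusted p = 0.226). With array quality weights ey (adjusted p = 0.0155) and eya (adjusted p = 0.0179) passed. The 95% intervals were 0.35 to 1.05 for ey, 0.20 to 0.71 for eya and 0.12 to 0.88 for dac, before any adjustment for the number of tests.

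The upstream Pax6 gene toy differed less. Its 3 probe sets differed by 0.31 ± 0.14, 0.18 ± 0.14 and 0.42 ± 0.15, and the mean of the 3 by 0.30 (adjusted p = 0.324). The brightest toy probe set read 12.11 and 12.17 in mutant disc cells, against 11.85 and 11.82 in control disc cells. The difference was 0.34 ± 0.23 for eyg, which read 10.03 and 9.74 in mutant disc cells and 9.52 and 9.58 in control disc cells. It was 0.24 ± 0.15 for tsh and 0.39 ± 0.23 for tio, each with an adjusted p above 0.5. The tio probe set stayed near the array medians, at 6.63 and 6.29 in mutant disc cells and 6.0 and 6.14 in control disc cells.

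**Figure D3:**
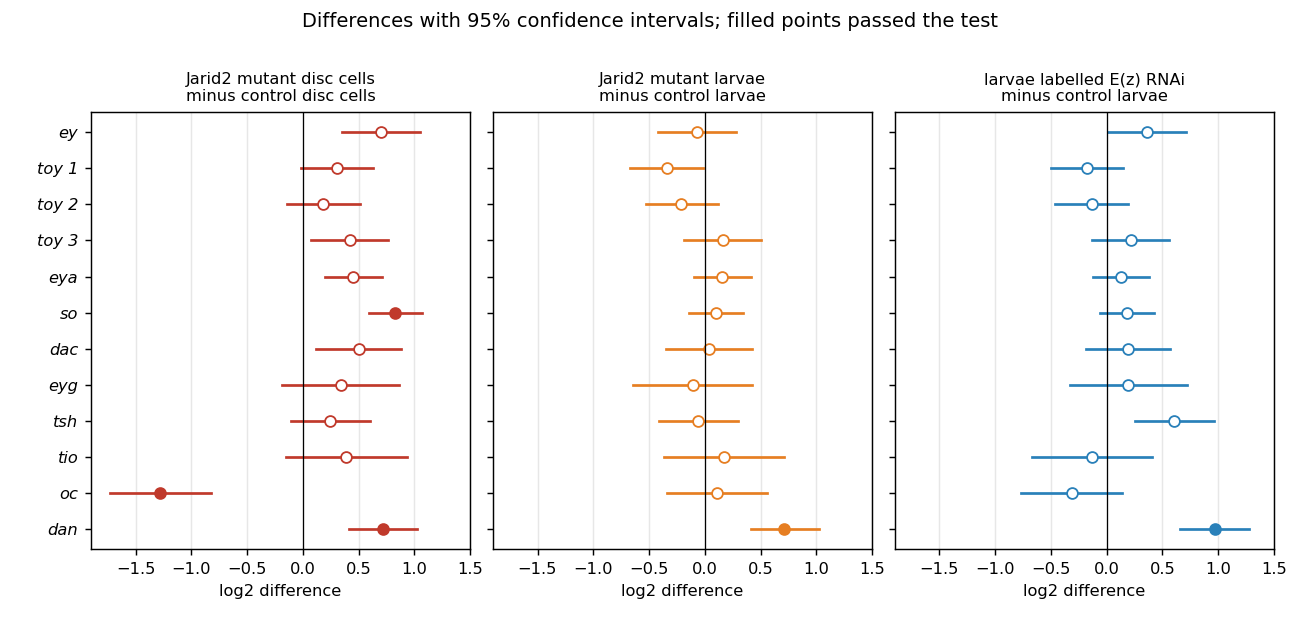
Log2 differences (horizontal axis) of the 12 probe sets in Jarid2 mutant disc cells, Jarid2 mutant larvae and larvae labelled E(z) RNAi, each against the controls of its own tissue, with bars for 95% confidence intervals from limma and filled points for an adjusted p under 0.05. Filled points are so, dan and oc in disc cells and dan in each larval panel, where the same control larvae serve both comparisons.

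**Figure D4:**
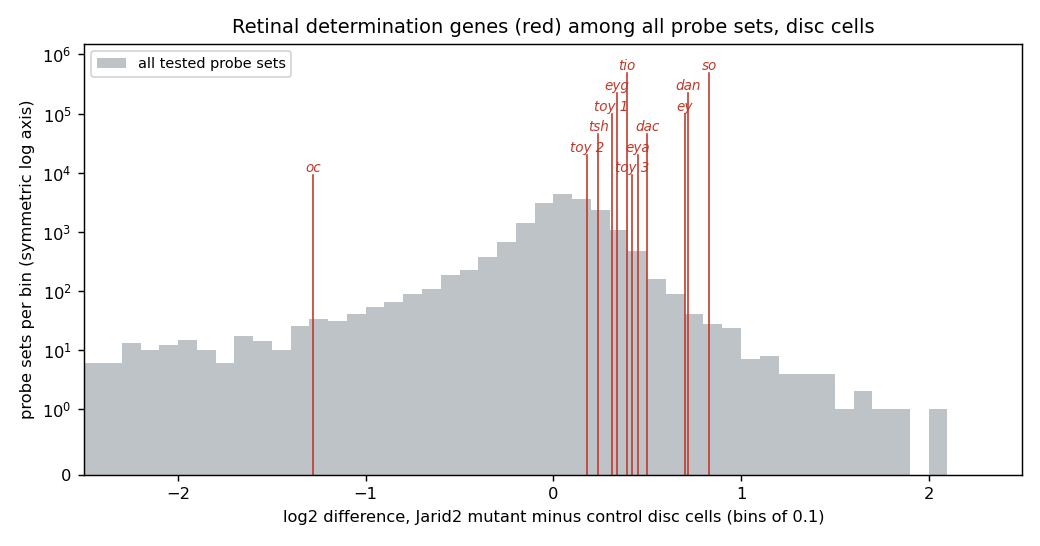
Number of probe sets (vertical axis, symmetric log scale) in bins of the log2 difference between mutant and control disc cells, drawn from -2.5 to 2.5, with the 12 retinal determination probe sets marked by red lines and toy numbered as in the plot of all arrays. The red lines of 11 probe sets lie between 0.18 and 0.83, to the right of the peak, and that of oc lies at -1.28.

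The call for so held in more settings than the others. It was lost without the second mutant disc array (adjusted p = 0.0570) and kept with each other array left out in turn. The call for oc was lost without the first control disc array (adjusted p = 0.0731), without the second (adjusted p = 0.103) and without the second mutant disc array (adjusted p = 0.0683). That for dan was lost with each of the 4 disc arrays left out, with adjusted p between 0.0672 and 0.237, and with either Jarid2 mutant larval array left out (adjusted p = 0.0671 each). In a fit of the disc arrays alone so was the one probe set called (0.83, adjusted p = 0.0296), where 0.533% of all probe sets were called higher, while oc (adjusted p = 0.0538) and dan (adjusted p = 0.0583) were not.

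Levels of other cell types moved in the same comparison. Of 16 haemocyte markers 11 were lower in mutant disc cells and none was higher, and the list median was -4.89. The haemocyte surface gene He read 4.69 and 6.20 in mutant disc cells, against 12.18 and 12.79 in control disc cells. Summed over the list as log2 values, haemocyte markers reached 103.1 to 106.5 in mutant disc cells and 160.7 to 172.9 in control disc cells. Summed levels of lists given below are also sums of log2 values, not totals of expression. The blood-cell GATA factor gene srp lay at 3.74 and 4.24 in mutant disc cells, below the lower quartiles of 4.21 and 4.27 of those arrays. Its difference of -6.60 ± 0.26 thus rests on low mutant values and may be a lower bound. The part of the haemocyte markers in the differences of the retinal determination genes was not tested. Fewer cells of a type and less RNA per cell cannot be told apart in such bulk samples.

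Markers of further cell types were also read in the disc arrays. The myoblast genes twi and htl differed by -2.23 ± 0.29 and -1.66 ± 0.23 in mutant disc cells, and 2 of 5 myoblast and muscle markers were called, with summed levels of 29.4 to 29.6 in mutant and 33.2 to 35.1 in control disc cells. Of 10 glial markers 2 were lower, repo and wrapper, and 1 was higher, gcm, with summed levels of 97.1 to 98.9 in mutant and 98.7 to 101 in control disc cells. By limma 0 of 8 central nervous system markers were called, and 1 was higher at an unadjusted p under 0.05. Their part was not tested either.

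**Figure D5:**
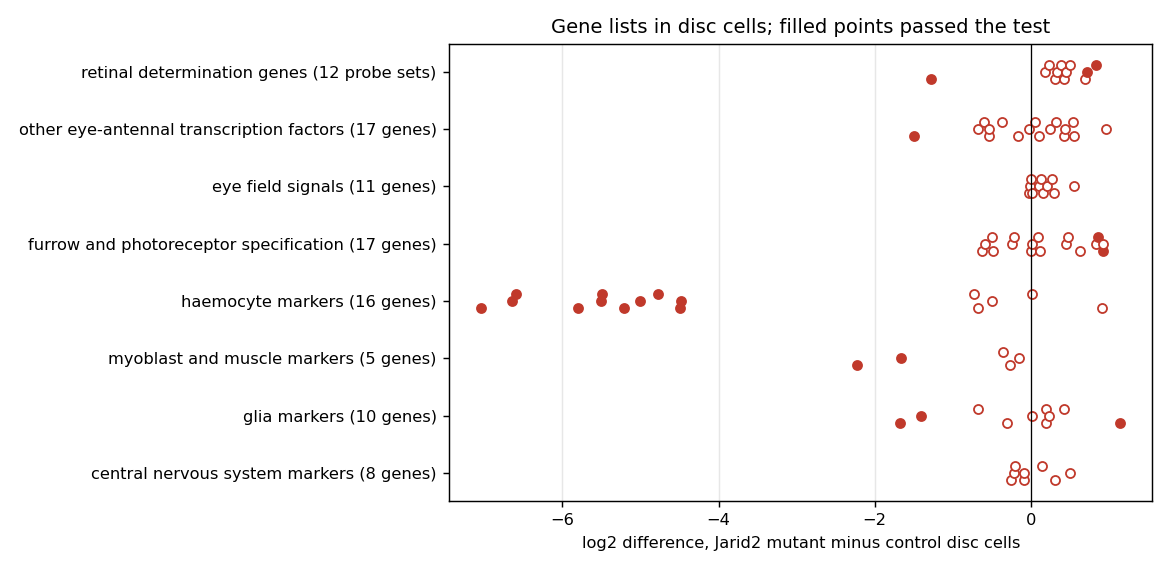
Log2 differences between Jarid2 mutant and control disc cells (horizontal axis) for the retinal determination probe sets and 7 other gene lists (rows), with 1 point per probe set or gene and filled points for those that passed the test. Of the haemocyte markers 11 lie below -4, whereas the retinal determination probe sets lie between -1.28 and 0.83.

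Genes that work downstream of the retinal determination network were read in the same arrays. Of 17 measured furrow and photoreceptor genes 2 rose in mutant disc cells and none fell, with a list median of 0.09 against 0.08 over all genes. The proneural gene ato, which founds the R8 photoreceptor, rose by 0.86 ± 0.15 (adjusted p = 0.0238). It read 11.73 and 12.08 in mutant disc cells, against 11.02 and 11.08 in control disc cells. The homeobox gene ro, which restricts ato, rose by 0.93 ± 0.14 (adjusted p = 0.0130). The R8 factor gene sens (0.84 ± 0.19, adjusted p = 0.0782) and the R7 receptor gene sev (0.93 ± 0.20, adjusted p = 0.0583) did not pass. At an unadjusted p under 0.05 the list had 6 genes higher and 3 lower. The 3, of which elav and rno fall outside the rule for named genes and were chosen after their values were seen, were the neuronal gene elav (-0.49 ± 0.20), pros (-0.59 ± 0.16) and rno (-0.63 ± 0.23).

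Among 17 measured further transcription factors 1 fell in mutant disc cells and none rose, with a median of 0.05. That gene was the GATA factor gene pnr, which acts at the dorsal margin of the eye field and read 9.32 and 8.83 in mutant disc cells, against 10.52 and 10.62 in control disc cells (-1.49 ± 0.30, adjusted p = 0.0467). At an unadjusted p under 0.05 this list had 5 genes higher and 1 lower. Nearest to a call among the higher were B-H2 (0.55 ± 0.11, adjusted p = 0.0522) and hbn (0.97 ± 0.21, adjusted p = 0.0623). The paralog danr read 12.14 and 12.41 in mutant disc cells and 11.72 and 11.77 in control disc cells, a difference of 0.54 ± 0.13 (adjusted p = 0.0951) beside the rise of dan. By the RefSeq gene table of Release 6, 1 protein-coding gene lies between dan and danr. By limma 0 of the 11 measured signalling genes were called in disc cells, and 2 were higher at an unadjusted p under 0.05, where the receptor gene Egfr had the smallest p, at 0.55 ± 0.16 (adjusted p = 0.152).

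In whole animals the same mutation was followed by setting mutant larvae against control larvae. Only dan, 1 of the 10 genes, was called higher, 8.33% of the 12 probe sets, where 1.34% of all probe sets were higher, and 0 were called lower, where 1.07% of all were. At an unadjusted p under 0.05 the counts were 1 higher and 1 lower, with no such count made over all probe sets. The median over the 12 was 0.07, against 0.01 over all probe sets. In mutant larvae dan read 6.88 and 6.99, against 6.33 and 6.11 in control larvae, a rise of 0.71 ± 0.13, or 1.64-fold (adjusted p = 0.0367).

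The other members stayed within 0.34 of the controls in the mutant larvae. The brightest toy probe set had the largest of these differences, with 8.12 and 7.92 in mutant larvae and 8.55 and 8.18 in control larvae (-0.34 ± 0.14, adjusted p = 0.392). For so the mutant larvae read 7.30 and 7.36 and the control larvae 7.25 and 7.21 (0.10 ± 0.10, 95% interval -0.14 to 0.34). For oc they read 5.38 and 5.44, against 5.32 and 5.29 in control larvae (0.11 ± 0.19, 95% interval -0.34 to 0.56). Whole larvae hold the eye-antennal disc as a small part of their tissue, and these values do not say which tissue the signal came from.

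The dan call in mutant larvae rested on the spread shared by all 5 groups. With the 6 larval arrays fitted on their own 0 of the 12 probe sets were called by limma, where 0.821% of all were. In that fit 1 member had an unadjusted p under 0.05, a count not made over all probe sets. The adjusted p of dan was 0.142 there. The call was lost without the second control larval array (0.60, adjusted p = 0.151), without the first (adjusted p = 0.140) or second (adjusted p = 0.197) mutant larval array, and without any 1 of the 4 disc arrays, with adjusted p between 0.0558 and 0.0810. With the replicate number as a block the adjusted p was 0.0638.

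Its paralog danr read 7.92 and 7.99 in mutant larvae, against 8.39 and 8.14 in control larvae, a difference of -0.31 ± 0.13 that did not pass (adjusted p = 0.413). Among the pathway genes the neural fate gene pros was called lower in mutant larvae, with a difference of -1.04 ± 0.16 (adjusted p = 0.0147). It read 8.13 and 7.88 there, against 9.07 and 9.01 in control larvae. It was the 1 called of 17 furrow and photoreceptor genes, and limma called 0 of 17 further transcription factors and 0 of 11 signalling genes, with medians of 0.06 and 0.04. At an unadjusted p under 0.05 the signalling genes numbered 0, and the transcription factor genes 3 higher and 1 lower. The 3 were B-H1 (0.48 ± 0.15), al (0.41 ± 0.15) and ems (0.51 ± 0.21), and the 1 was danr. Of the cell type markers, repo and NimC1 were called lower in mutant larvae. The difference was -1.23 ± 0.23 (adjusted p = 0.0392) for repo, of 10 glial genes. It was -1.52 ± 0.29 (adjusted p = 0.0392) for NimC1, of 16 haemocyte genes. List medians were 0.03 for the glial and 0.22 for the haemocyte genes. At an unadjusted p under 0.05 each of these 2 lists had 1 gene higher and 1 lower. Summed levels were 94.1 to 94.9 in mutant and 94.1 to 96.2 in control larvae for glial genes, and 147.1 to 150 in mutant and 145.3 to 147.1 in control larvae for haemocyte genes. Their part in the difference of dan was not tested.

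Larvae labelled E(z) RNAi, whose E(z) probe set was not lower, were set against the same control larvae. Again dan was the one gene of the list called higher, 8.33% of the list, where 2.63% of all probe sets were higher. It read 7.10 and 7.28 in these larvae, against 6.33 and 6.11 in control larvae, a rise of 0.97 ± 0.13, or 1.96-fold (adjusted p = 0.0101). Both larval comparisons share their control arrays, so the rises of dan in both are not independent. With the 6 larval arrays on their own 0 of 12 were called by limma, where 0.900% of all were called. In that fit 3 members had an unadjusted p under 0.05, a count not made over all probe sets. The adjusted p of dan was 0.0631 there. The call was also lost without the second control larval array (0.86, adjusted p = 0.0526) and when the second of the arrays labelled E(z) RNAi was left out (0.88, adjusted p = 0.0594).

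The trunk and eye gene tsh read 10.23 and 10.24 in larvae labelled E(z) RNAi, against 9.83 and 9.43 in control larvae, a difference of 0.60 ± 0.15 (adjusted p = 0.0738). Without the first control larval array it passed, at 0.81 (adjusted p = 0.0387). The arrays labelled E(z) RNAi both lay above both control arrays. The Pax6 gene ey read 7.81 and 8.0, against 7.65 and 7.43 in control larvae (0.36 ± 0.15, adjusted p = 0.221). For oc both arrays labelled E(z) RNAi lay below their lower quartiles, at 4.78 and 5.19, against 5.32 and 5.29 in control larvae (-0.31 ± 0.19, adjusted p = 0.385). The remaining probe sets differed by between -0.18 and 0.22.

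In the lists around the network 1 gene changed in these larvae, the Dpp receptor gene tkv, which rose by 0.53 ± 0.11 (adjusted p = 0.0409) and was 1 of 11 signalling genes. By limma 0 of 17 further transcription factors and 0 of 17 furrow and photoreceptor genes passed, with medians of 0.15 and 0.12 against 0.03 over all genes, and 3 of each were higher at an unadjusted p under 0.05. The closest were B-H1 (0.61 ± 0.15, adjusted p = 0.0641) and al (0.60 ± 0.15, adjusted p = 0.0670). For danr the arrays labelled E(z) RNAi read 7.98 and 7.96, against 8.39 and 8.14 in control larvae (-0.29 ± 0.13, adjusted p = 0.247), while dan rose. Of the cell type markers, NimC1 (-1.46 ± 0.29, adjusted p = 0.0360) was called lower and the muscle gene Act88F (1.24 ± 0.14, adjusted p = 0.00511) higher. The haemocyte list that holds NimC1 had a median of 0.51, with 4 genes higher and 1 lower at an unadjusted p under 0.05. Summed levels were 146.5 to 155.7 in larvae labelled E(z) RNAi and 145.3 to 147.1 in control larvae for haemocyte genes, and 42.2 to 43.6 in larvae labelled E(z) RNAi and 40.2 to 40.9 in control larvae for myoblast and muscle genes. Their part was not tested.

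Jarid2 mutant larvae were also set directly against larvae labelled E(z) RNAi. The trunk and eye gene tsh was the 1 gene of the list called, with a difference of -0.66 ± 0.15 (adjusted p = 0.0482), where 3.71% of all probe sets were lower. It read 9.57 and 9.57 in mutant larvae, against 10.23 and 10.24 in larvae labelled E(z) RNAi. The call was lost with 8 of the 10 arrays left out in turn, with adjusted p up to 0.190, and with the larval arrays on their own (adjusted p = 0.135). The difference for dan was -0.26 ± 0.13 (adjusted p = 0.324).

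The effect of the Jarid2 mutation in disc cells was tested against its effect in larvae. For so the effect was larger in disc cells by 0.72 ± 0.15 (adjusted p = 0.0452), and for oc the difference was -1.39 ± 0.28 (adjusted p = 0.0418). The so and oc calls were 1 probe set in each direction, where 0.789% of all probe sets were called higher and 2.10% lower. With quantile normalization of all arrays so was 0.71 (adjusted p = 0.127) and oc -0.79 (adjusted p = 0.114), neither called. The so difference was not called with any array left out in turn, with adjusted p from 0.0627 to 0.184, and that of oc was not called in 7 of the 10 such fits, with adjusted p up to 0.154. For dan the effects were 0.72 in disc cells and 0.71 in larvae, a difference of 0.00 ± 0.19 (95% interval -0.43 to 0.44). For ey the difference was 0.76 ± 0.21 (adjusted p = 0.145) and for the brightest toy probe set 0.65 ± 0.20 (adjusted p = 0.186).

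Over the 5 groups the order of levels was headed by mutant disc cells for each of the 12 probe sets except oc, which control disc cells headed. In 10 of the 12 orders control disc cells came second, oc and tio being the exceptions, and the gap to the highest larval group was without overlap in those orders except for tsh. For tsh the control disc cells, at 10.26 and 10.21, overlapped the larvae labelled E(z) RNAi. For tio all 4 neighbouring groups in the order overlapped. For oc and dan all 5 groups were apart from their neighbours, although not every gap passed the test. For oc mutant larvae and control larvae differed by 0.11 (limma, adjusted p = 0.894). For dan mutant larvae and larvae labelled E(z) RNAi differed by -0.26 (limma, adjusted p = 0.324). The dan groups ran in the order mutant disc cells, control disc cells, larvae labelled E(z) RNAi, mutant larvae and control larvae. These orders and gaps were counted for the members only, so no share over all probe sets stands beside them.

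By pattern over the 10 arrays, the genes most like eya were the Runx gene lz (r = 0.9995), Dis3 (0.9992) and jumu (0.9987), and those most like dac were lz (0.9991), Srrm234 (0.9989) and boi (0.9986). For so they were the Notch target genes E(spl)m4-BFM and E(spl)m5-HLH (0.9991 each) and superdeath (0.9989), and for ey they were Wdr24 (0.9992), Ino80 (0.9978) and CG6454 (0.9974). These are Pearson correlations among 8985 candidate genes, and the arrays fall into disc and larval clusters that carry most of them. Within the 6 larval arrays the values were lower for eya, at 0.84 with lz, 0.57 with Dis3 and 0.83 with jumu, and stayed between 0.96 and 0.99 for ey. They were 0.73, 0.68 and 0.86 for so and 0.89, 0.86 and 0.94 for dac, with the genes in the order given.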

How the data were processed

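RNA of 10 samples was hybridised to Affymetrix arrays after biotin labelling of 200 ng of total RNA, per the labels. The deposited values are log2 expression per probe set, as their range shows. The submitters' processing notes name limma 3.4.3, and how background, normalization and probe summary were handled is not stated there. All 10 columns were matched to samples by name, with groups from the sample titles.

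The table held 18952 probe sets, of which 183 control probe sets were left out. By the platform annotation 13647 probe sets had 1 gene, 402 had several and 4720 had none, and only the first kind was named. A gene outside the list was represented by its brightest probe set. Of the 13647, 13544 were matched to the RefSeq table. No positions are printed, since the files name no genome build.

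All 5 groups entered one limma 3.58.1 model (lmFit, then eBayes, under R 4.3.3) of group means, with 5 residual and 2.78 prior degrees of freedom. P-values were two-sided and adjusted by Benjamini-Hochberg over 18769 probe sets. Counts at an unadjusted p under 0.05 were made for members and listed genes only, so no share over all probe sets stands beside them. The fit was run on simulated data with independent noise and planted changes of at least 2-fold. Smaller changes, such as the rises of so and dan in disc cells, were not simulated. Figures were drawn with matplotlib 3.10.9. The number of arrays limits the precision.

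The rule for named genes was all 10 members with every probe set, Jarid2, E(z), up to 4 genes with the smallest p of each pathway list in each comparison, and the 3 genes most correlated with ey, eya, so and dac among genes above the lower quartile. The members and lists were chosen with earlier results of these data known. As alternatives, arrays were rescaled (quantile normalization over all arrays or by tissue, or median centring), the dimmest 30% of probe sets or each array in turn was dropped, and single tissues or pairs of groups were fitted separately. The model was also changed (intensity trend, robust prior, array weights, replicate block), probe sets of a gene were averaged, and a change of at least 2-fold was required. A fit without the arrays labelled E(z) RNAi was added after the data were seen.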

Additional observations from a re-analysis of the deposited data

Results flagged for a closer look

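The effect of the Jarid2 mutation on 2 retinal determination genes differed between disc cells and larvae by the test of that difference in limma. For so it was 0.72 (adjusted p = 0.0452), with a rise of 0.83 in disc cells and a difference of 0.10 in larvae. For oc it was -1.39 (adjusted p = 0.0418), with a fall of -1.28 in disc cells and a difference of 0.11 in larvae. With quantile normalization of all arrays the so difference was 0.71 (adjusted p = 0.127) and that of oc -0.79 (adjusted p = 0.114). The other alternatives rescaled the arrays, changed the model, dropped dim probe sets or left out whole groups. Of these 10 alternatives in all, 8 did not call so and 4 did not call oc. Groups of 2 arrays are too small for a search for outlying arrays.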

How the results depend on the processing

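Of 1458 recomputed differences of the 12 probe sets, 83 lost a call in the same direction and 3 gained one. Most of the 1458 had no call to lose, and all 83 losses fell outside the comparison of control disc cells with control larvae. Where no single array was left out, the dan call failed in 6 of 11 alternatives for disc cells and 7 of 11 for Jarid2 mutant larvae. It failed in 2 of 10 for larvae labelled E(z) RNAi. The oc call in disc cells failed in 3 of 11, and the tsh call in the direct larval comparison in 9 of 10. Of the 1458 the sign changed in 25, of which 2 were called under the alternative and the rest in neither setting. Both called ones were for tio between control disc cells and control larvae (1.40 with quantile normalization of all arrays and 1.67 with median centring). The rise of so in disc cells was called, between 0.80 and 0.89, in the 11 alternatives that rescaled the arrays, changed the model, dropped dim probe sets or left out whole groups. It did not reach the 2-fold minimum, and its call was lost without the second mutant disc array (0.77, adjusted p = 0.0570).

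The numbers of probe sets called were, in the order disc cells, Jarid2 larvae, larvae labelled E(z) RNAi, difference between tissues and direct larval comparison, 3, 1, 1, 2 and 1 as reported. They were 1, 0, 1, 0 and 0 with quantile normalization of all arrays, 2, 0, 1, 1 and 0 within each tissue, 2, 0, 1, 0 and 0 with median centring, and 1, 0, 0, 1 and 0 in the compared groups alone. They were 5, 0, 1, 0 and 0 with array weights and 1, 0, 0, 1 and 0 at a minimum of 2-fold. Fits of one tissue gave 1, 0, 0 and 0 for the 4 comparisons within a tissue. The intensity trend gave 1 for the difference between tissues, as did the fit without the arrays labelled E(z) RNAi. The direct larval comparison had 0 without the dimmest 30% of probe sets, with the robust prior and with the mean of a gene's probe sets. Leaving out 1 array gave 0 to 3 in disc cells, 0 to 1 in Jarid2 larvae, 0 to 2 in larvae labelled E(z) RNAi, 0 to 1 for the difference between tissues and 0 to 1 for the direct comparison, and 11 in every such fit for control disc cells against control larvae, which had 9 to 12 otherwise.

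The replicate number as a block gave 2, 0, 1, 0 and 0 in the same order. Deviations of same-numbered arrays correlated between -0.42 and 0.11 over the pairs of groups, so the numbers were not taken to pair the samples. The cause of these changes was not tested. Without the dimmest 30% the toy probe set 1623314_at was not tested.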

Other observations

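Antennal and head selectors outside the rule for named genes were looked at after their values were seen. The antennal gene Dll read 10.87 and 10.08 in Jarid2 mutant disc cells, against 11.04 and 10.99 in control disc cells (-0.54 ± 0.26, adjusted p = 0.436). Lim1 read 10.21 and 9.54 in mutant disc cells, against 10.50 and 10.34 in control disc cells (-0.54 ± 0.26, adjusted p = 0.429), and ct 7.5 and 6.57 in mutant disc cells, against 7.6 and 7.81 in control disc cells (-0.67 ± 0.29, adjusted p = 0.361). In each the second mutant array was the lowest of the 4, as it was for oc and pnr, and none passed the test. Of the same list tup (-0.60 ± 0.33, adjusted p = 0.507) and Awh (-0.37 ± 0.21, adjusted p = 0.514) also read lower without passing. Other differences were 0.43 ± 0.15 for B-H1, 0.11 ± 0.19 for ss, 0.05 ± 0.21 for ems and -0.02 ± 0.15 for al. For tup, Awh, ems and al the second mutant array was again the lowest of the 4. The median of the 17 genes was 0.05, and at an unadjusted p under 0.05 the list had 5 genes higher and 1 lower, which was pnr. The eye gene Optix read 10.90 and 11.14 in mutant disc cells, against 10.56 and 10.61 in control disc cells (0.44 ± 0.15, adjusted p = 0.259), and lz, the gene most like eya and dac by pattern, read 10.71 and 10.83 in mutant disc cells, against 10.16 and 10.11 in control disc cells (0.63 ± 0.15, adjusted p = 0.0799).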
